A study of Homo sapiens with 6 samples.

Results

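The m6A peaks described here are those to which the authors' peak lists give a gene but no part of a transcript. Each list has a column naming the transcript part under a peak (5′ UTR, coding sequence, stop codon, 3′ UTR or non-coding RNA), and a peak was taken where that column held only the text NA. This rule uses no peak height, width or overlap directly, but a wider peak can more easily reach a labelled transcript part. Width, and the rank linked to it, are therefore not independent of the rule. It found 885 peaks among 41729 in the 3 lists: 424 of 15272 under control siRNA, 172 of 13147 under DF2 siRNA 1 and 289 of 13310 under DF2 siRNA 2. They are called unannotated peaks below, and all others annotated peaks.

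N6-methyladenosine (m6A) is a methyl mark set on adenosines of RNA by a nuclear methyltransferase complex, mostly in a short sequence centred on the letters GGAC and mostly near stop codons and in 3′ UTRs of mature mRNA. YTHDF2 (DF2) is a cytoplasmic reader protein that binds the mark and speeds the decay of the bound mRNA. In m6A-seq, RNA is fragmented, fragments are precipitated with an antibody against the mark, and places with more reads in the precipitate than in the input are called as peaks. A peak may hold no known transcript part when it lies in a stretch that gene models treat as intron or leave out.

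The cells were U2OS, an established human osteosarcoma line labelled wild type and, by cell type, epithelial. The 3 conditions were a control siRNA and 2 different siRNAs against DF2, called #1 and #2 in the labels. Cytoplasmic RNA was broken to about 100 nt, and each condition has 1 input sample and 1 precipitate made with the same anti-m6A antibody, so 6 samples in all. The 3 peak lists, 1 per condition, are marked as merged over a pair of replicates that the labels do not set out, and no value per replicate was analysed here. With 1 list per condition no difference between conditions can be tested. Every interval below is an exact (Clopper-Pearson) 95% interval that treats peaks as independent and covers counting error only, except that beside a count of 0 the limit given is what 3 counts of the total would make. The lists hold no transcript level, so neither the strength of the DF2 knock-down nor the cell type was checked, and read depth is unknown. More methylation, more RNA of the gene and a deeper library cannot be told apart in a list of peaks.

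Only a few unannotated peaks reached stretches whose letters could be read. Of the 300-base RefSeq windows around gene starts (250 bases before and 50 after the start, GRCh38.p14), 4 were reached by an unannotated peak in all 3 lists. The 3 with the longest common stretch are shown, since they are the places where a recurrent unannotated peak can be seen in sequence. They are written 5′ to 3′ on the gene's strand, with the bases inside the peaks of all 3 lists in capitals. The first is the start of RGS12, a regulator of G-protein signalling, at chr4:3384906-3385205 on the plus strand, with 59 bases in the peaks. The next is GOLGA8B, a golgin, at chr15:34583602-34583901 on the minus strand, with 50 bases in the peaks. GOLGA8B has near-identical copies in the genome, so its reads may be split among them and its values are uncertain. The last is the non-coding gene LOC101930112 at chr16:89490720-89491019 on the plus strand, with 103 bases in the peaks. The peak there was assigned by the authors to SPG7, which starts downstream.
RGS12: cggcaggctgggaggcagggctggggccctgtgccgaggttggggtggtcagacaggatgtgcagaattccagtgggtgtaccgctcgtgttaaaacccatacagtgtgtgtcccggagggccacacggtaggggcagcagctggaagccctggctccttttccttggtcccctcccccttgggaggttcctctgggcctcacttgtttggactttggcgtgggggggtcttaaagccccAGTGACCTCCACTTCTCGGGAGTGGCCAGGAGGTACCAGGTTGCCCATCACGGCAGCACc
GOLGA8B: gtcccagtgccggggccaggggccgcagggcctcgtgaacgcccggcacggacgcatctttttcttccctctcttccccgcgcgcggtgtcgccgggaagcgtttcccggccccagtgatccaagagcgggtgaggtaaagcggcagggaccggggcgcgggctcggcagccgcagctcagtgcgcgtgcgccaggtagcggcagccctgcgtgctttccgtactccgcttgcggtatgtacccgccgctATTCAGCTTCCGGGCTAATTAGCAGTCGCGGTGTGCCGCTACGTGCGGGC
LOC101930112: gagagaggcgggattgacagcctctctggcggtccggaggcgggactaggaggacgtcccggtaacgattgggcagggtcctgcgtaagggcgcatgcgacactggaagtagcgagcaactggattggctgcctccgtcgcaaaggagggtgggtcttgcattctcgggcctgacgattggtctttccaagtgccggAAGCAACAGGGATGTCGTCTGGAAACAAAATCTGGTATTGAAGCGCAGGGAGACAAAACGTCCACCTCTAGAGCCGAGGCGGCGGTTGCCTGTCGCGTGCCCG
The remaining window, of LOC105376156 on chromosome 9, had 16 bases inside peaks assigned to FANCC. The letters GGAC were searched on both strands. The capitals of the 4 windows held 0 matches on the gene's strand, and 1 on the other strand, in LOC101930112. In the whole windows GGAC on the gene's strand occurred 1 time for RGS12, 2 times for GOLGA8B and 2 times for LOC101930112. Over all 35116 windows of 300 bases, 66.3% held GGAC on the gene's strand and 25.3% held GGACT, which is GGAC with 1 more letter. On either strand the shares were 87.4% and 44.2%. These matches describe letters in a window and say nothing of where the antibody bound.

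Unannotated peaks were few in every list, fewer than those in the 5′ UTR alone, the coding sequence alone, the 3′ UTR alone or non-coding RNA alone. They made up 2.78% of the control siRNA list (interval 2.52% to 3.05%), 1.31% of the DF2 siRNA 1 list (1.12% to 1.52%) and 2.17% of the DF2 siRNA 2 list (1.93% to 2.43%). The 3 intervals did not overlap, with the highest share under control siRNA and the lowest under DF2 siRNA 1. Peaks on non-coding RNA alone stood in the same order, at 12.6%, 7.61% and 10.6%. Peaks in the 3′ UTR alone made up 15.3%, 13.3% and 13.3%.

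The order of the lists held under 3 stricter choices of peaks and changed when each list kept the same number of peaks. Among peaks with a false discovery rate (FDR) under 0.01 the shares were 2.16%, 0.975% and 1.64% for control siRNA, DF2 siRNA 1 and DF2 siRNA 2. In the upper 50% of each list they were 0.262%, 0.0914% and 0.195% by score, and 0.904%, 0.243% and 0.586% by fold enrichment. When each list was limited to its 13147 highest-scoring peaks, the length of the shortest list, they were 1.59%, 1.31% and 2.00%. DF2 siRNA 2 then stood above control siRNA, with overlapping intervals (1.77% to 2.25% and 1.38% to 1.82%). Under this limit control siRNA kept 209 unannotated peaks, DF2 siRNA 2 kept 263 and DF2 siRNA 1 kept all 172. DF2 siRNA 1 had the lowest share under each of these settings, although with equal numbers of peaks its interval reached into that of control siRNA. The intervals of both DF2 siRNA lists overlapped in the upper 50% by score (0.0336% to 0.199% and 0.104% to 0.333%). That of control siRNA (0.160% to 0.405%) overlapped both. In the upper 50% by fold enrichment those of control siRNA and DF2 siRNA 2 overlapped (0.704% to 1.14% and 0.417% to 0.800%).

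**Figure D1:**
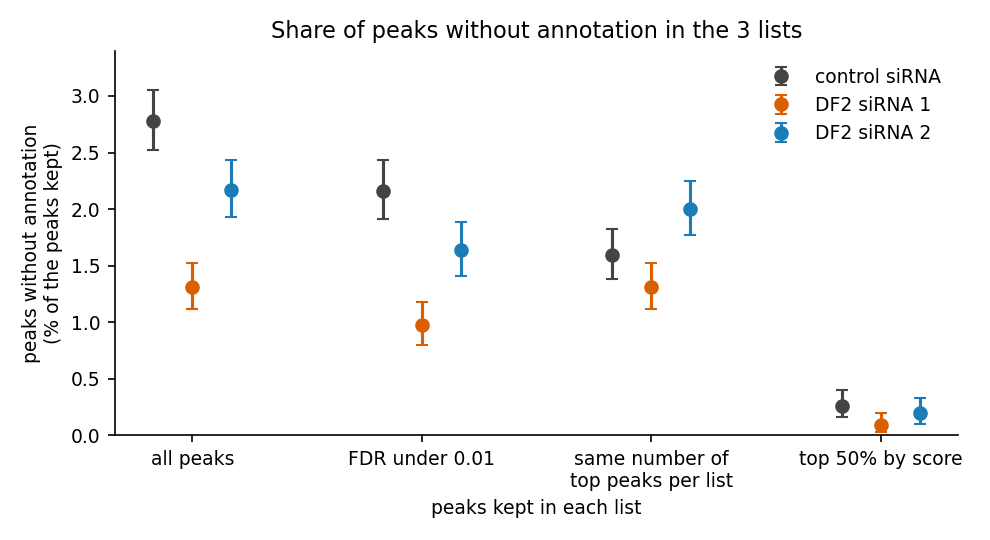
Share of peaks without annotation in each list (y axis, % of the peaks kept), for all peaks and for 3 stricter choices of peaks (x axis). Points are shares and bars are exact 95% intervals for counting error. Control siRNA is highest for all peaks (2.78%). It lies below DF2 siRNA 2 when each list keeps the same number of top peaks (1.59% against 2.00%), with overlapping intervals.

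The unannotated peaks were narrow. How much of this follows from the rule, under which a wide peak more easily gains a label, was not tested. Peaks are built from bins of 200 bases, and 94.8%, 96.5% and 95.8% of the unannotated peaks under control siRNA, DF2 siRNA 1 and DF2 siRNA 2 covered a whole multiple of 200 bases. The median covered 400 bases in each list, against 600 bases over all peaks of each list. A single bin of 200 bases made up 40.8% of the unannotated peaks under control siRNA (36.1% to 45.6%), against 13.0% of all peaks there. The same shares were 36.0% against 13.5% under DF2 siRNA 1 and 34.3% against 11.1% under DF2 siRNA 2. The smallest unannotated peaks covered 114, 200 and 42 bases, and the widest covered 2000, 1400 and 2200 bases.

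Most unannotated peaks lay in 1 unbroken stretch of the genome, while annotated peaks were more often split into several stretches. A narrow peak more easily lies in 1 stretch, and the shares were not compared at equal width. The share in 1 stretch was 79.5% under control siRNA (75.3% to 83.2%), 86.0% under DF2 siRNA 1 (80.0% to 90.9%) and 81.7% under DF2 siRNA 2 (76.7% to 86.0%). Over all peaks it was 54.7%, 59.4% and 57.8%. Peaks in the 3′ UTR alone, mostly inside 1 exon, were higher, at 95.6%, 97.9% and 96.7%. The remaining unannotated peaks bridged gaps. The longest spanned 76383 bases under control siRNA, at ANXA4, which encodes a calcium-dependent phospholipid-binding protein.

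The widest unannotated peaks were at PTPN14, TRABD2A, AOPEP and TRMT44. The peak of PTPN14, a protein tyrosine phosphatase, covered 2000 bases under control siRNA and 1800 bases under DF2 siRNA 2, at chr1:214531363-214533362 on the minus strand. Under DF2 siRNA 1 the same stretch held a peak of 600 bases and another of 400 bases. The peak of TRMT44, a tRNA methyltransferase, covered 1600, 400 and 2200 bases under control siRNA, DF2 siRNA 1 and DF2 siRNA 2. At AOPEP, an aminopeptidase gene, the peak covered 1800 bases in 4 stretches under control siRNA and 1200 bases in 2 stretches in each DF2 siRNA list. In these 3 genes the narrowest peak, or a tie for it, was in the DF2 siRNA 1 list.

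The unannotated peaks were weak within their own lists. The authors give each peak a score, a whole number of at least 3, and no source read here defines it. Because the scale of the score differs between lists, it was turned into a percentile within each list, with tied peaks at their mean rank and the strongest peak at 100. Percentiles from lists of different lengths show no change between conditions. The median unannotated peak stood at percentile 13.7 under control siRNA, 8.66 under DF2 siRNA 1 and 10.8 under DF2 siRNA 2. Peaks on non-coding RNA alone had medians of 22.1, 16.3 and 17.9, and peaks in the 3′ UTR alone had medians of 38.5, 39.7 and 39.8.

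The weakest 20% of each list held 63.9%, 69.8% and 72.0% of its unannotated peaks. Only 20, 6 and 13 unannotated peaks reached the stronger 50% of their list, and 3, 1 and 2 reached the top 20%. The middle 50% of unannotated peaks ran from percentile 6.59 to 26.0 under control siRNA, from 3.04 to 22.8 under DF2 siRNA 1 and from 5.44 to 21.0 under DF2 siRNA 2. By −log10 FDR the same peaks ranked higher, with median percentiles of 28.6, 27.4 and 25.0. The authors' fold enrichment of precipitate over input was also low. Its median over unannotated peaks was 8.93, 6.10 and 7.96, against 19.1, 14.9 and 18.7 over all peaks. An FDR under 0.01 was met by 63.2%, 61.6% and 62.3% of unannotated peaks, against 81.2%, 82.7% and 82.7% of all peaks.

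Width and rank were linked in this comparison. Ranked only among peaks of the same covered width in their list, the median unannotated peak stood at percentile 25.0, 15.3 and 17.7. These are higher than the medians over the whole list, and still in the lower 50%.

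**Figure D2:**
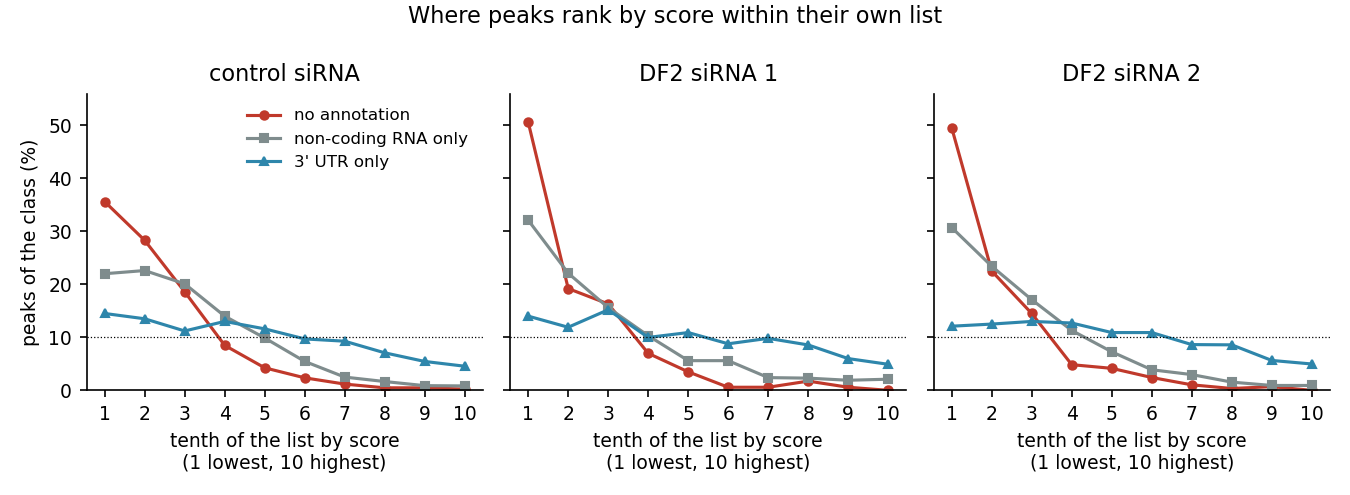
Share of each class of peaks (y axis, %) in each step of 10% of its list by score (x axis, 1 for the lowest step), in the 3 lists; the dotted line is the 10% that all peaks give. Unannotated peaks are packed into the lowest step (35.6% under control siRNA, 50.6% under DF2 siRNA 1 and 49.5% under DF2 siRNA 2) and nearly absent from the highest steps.

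Nearly all unannotated peaks were assigned to protein-coding genes, and the rule leaves out any peak labelled non-coding RNA. The low share in non-coding genes thus follows in part from the rule. Of the peaks whose gene matched RefSeq (421 of 424, 169 of 172 and 287 of 289), 98.8%, 98.2% and 98.6% had been assigned by the authors to protein-coding genes, 0 to long non-coding RNA genes (which allows up to 0.713%, 1.78% and 1.05%), and 5, 3 and 4 to pseudogenes. Most peaks of any kind were assigned to protein-coding genes, at 93.6%, 95.6% and 94.3% of matched peaks, and peaks in the 3′ UTR alone were so in 99.6%, 99.5% and 99.6%. Peaks that the authors placed on non-coding RNA alone went to protein-coding genes in 4.73%, 5.65% and 4.46% of matched cases, and to long non-coding RNA genes in 65.8%, 67.5% and 66.0%. In that class 1077 of 1923, 504 of 1000 and 766 of 1416 peaks had no RefSeq match, so these shares cover less than 50% of it in each list.

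Unannotated peaks fell in 389 genes under control siRNA, 162 under DF2 siRNA 1 and 266 under DF2 siRNA 2. These were 4.08%, 1.94% and 3.11% of the genes with any peak in the list. The union was 531 genes, of which 75 had an unannotated peak in all 3 lists. Control siRNA alone accounted for 199 genes, DF2 siRNA 2 alone for 73 and DF2 siRNA 1 alone for 48. The same split was not made for all genes with a peak, so these counts show no difference between conditions. A further 97 genes were shared by control siRNA and DF2 siRNA 2 only, 18 by control siRNA and DF2 siRNA 1 only and 21 by both DF2 siRNAs only. Most genes had a single unannotated peak in a list, while 27, 8 and 23 genes had 2 and 4, 1 and 0 genes had 3. The 4 genes with 3 such peaks under control siRNA were SPG7, C1orf86, EP400NL and RAB17, as the list spells them, and were picked out after their counts were seen.

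Gene lists were read against those shares of 4.08%, 1.94% and 3.11%. Genes named for a genome clone, many of them non-coding, had a peak of any kind in 1007, 529 and 749 cases, of which 1, 1 and 0 had an unannotated peak. These were CTC-479C5.12 under control siRNA and AC002429.5 under DF2 siRNA 1, at percentiles 1.27 and 3.04. Antisense and intergenic non-coding genes had a peak in 283, 173 and 222 cases and an unannotated peak in 0, which allows up to 1.06%, 1.73% and 1.35%. Since the rule leaves out any peak labelled non-coding RNA, low counts in non-coding genes follow in part from it. Replication histone genes, whose mRNAs have no introns, had a peak in 23, 20 and 17 cases and an unannotated peak in 0. That allows up to 13.0% under control siRNA and 17.6% under DF2 siRNA 2, above the shares of all genes, so the histone genes were too few to tell apart from them.

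Most unannotated peaks lay in genes that also had an annotated peak, and the strongest annotated peak there mostly ranked higher. Under control siRNA 308 of 424 unannotated peaks (72.6%, interval 68.1% to 76.8%) lay in a gene that also had an annotated peak. Under DF2 siRNA 1 these were 129 of 172 (75.0%, 67.8% to 81.3%), and under DF2 siRNA 2 they were 202 of 289 (69.9%, 64.2% to 75.1%). The strongest annotated peak of such a gene had a median percentile of 66.7, 67.6 and 65.8, against medians from 11.6 to 14.1 for the unannotated peaks there. Part of this gap is built in, since the highest of a gene's annotated peaks is set against each unannotated peak. The unannotated peak was stronger than every annotated peak of its gene in 22, 7 and 9 cases. The median distance to the nearest annotated peak of the gene was 7686, 5678 and 5998 bases, and 0 unannotated peaks touched one. A peak at the stop codon, the usual site of m6A, was present in 72.4%, 73.6% and 68.8% of these cases. Like shares were not counted over all peaks or genes, so whether unannotated peaks differ from others in this is unknown.

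In the other cases the unannotated peak was the gene's only trace in that list. This held for 109, 42 and 81 genes, of which 79, 26 and 52 had no annotated peak in any of the 3 lists.

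Along the gene, unannotated peaks did not gather at the 3′ end, where the rule leaves out any peak labelled stop codon or 3′ UTR. Positions were taken for peaks inside the RefSeq span of protein-coding genes, from 0% at the start to 100% at the end of the gene, introns included. The median position was 55.7% under control siRNA, 48.3% under DF2 siRNA 1 and 50.9% under DF2 siRNA 2, against 82.2%, 81.9% and 82.1% over all peaks. The last 20% of the gene held 23.5% of unannotated peaks under control siRNA (19.3% to 28.3%), 24.6% under DF2 siRNA 1 (17.8% to 32.6%) and 23.2% under DF2 siRNA 2 (17.9% to 29.1%). Annotated peaks were there in 53.5%, 52.8% and 53.5% of cases. Peaks in the 3′ UTR alone, which the rule leaves out, were there in 81.8%, 84.3% and 84.1%. The contrast at the 3′ end thus follows in part from the rule. The first 20% held 22.4%, 32.4% and 24.5% of unannotated peaks, against 10.8% to 13.2% of annotated ones, and none of these pairs of intervals overlapped. The steps add up to the whole, so a lower share at the 3′ end raises the shares of the other steps. How much of the contrast at the start follows from this was not tested.

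**Figure D3:**
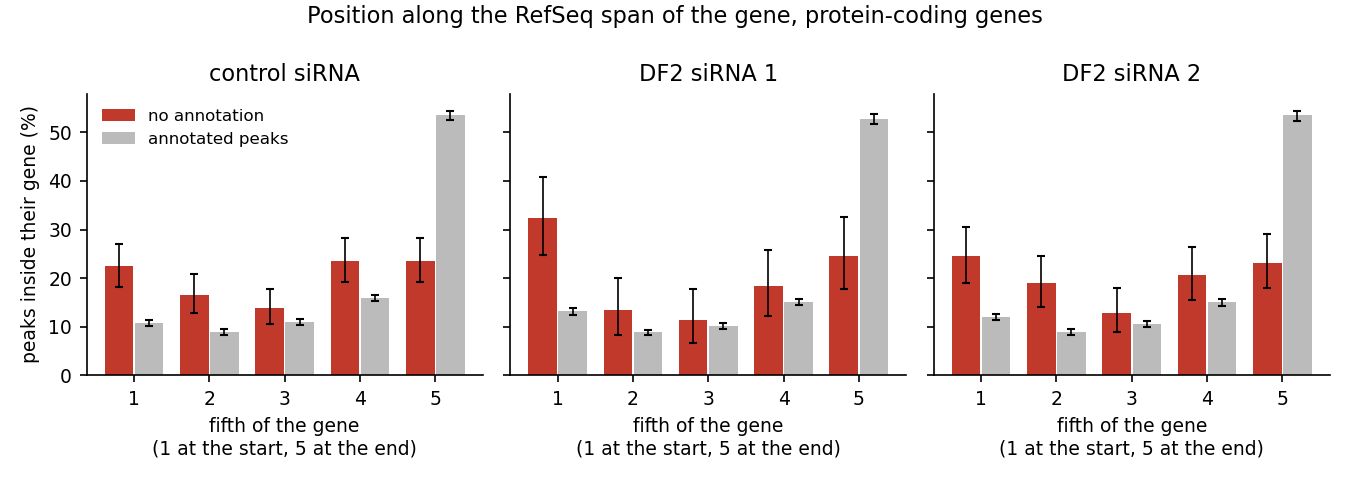
Share of peaks (y axis, %) in each step of 20% of the gene from start to end (x axis, 5 steps), for unannotated and annotated peaks inside protein-coding genes in the 3 lists; bars show exact 95% intervals for counting error. Annotated peaks pile up in the last step (53.5%, 52.8% and 53.5%), while unannotated peaks are spread along the gene with 23.5%, 24.6% and 23.2% there. The rule for unannotated peaks leaves out those labelled stop codon or 3′ UTR.

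Few unannotated peaks reached the gene's start itself, where the rule leaves out any peak labelled 5′ UTR. The 300-base window around the own gene's start was reached by 11 unannotated peaks under control siRNA (2.59%, 1.30% to 4.59%), by 6 under DF2 siRNA 1 (3.49%, 1.29% to 7.44%) and by 14 under DF2 siRNA 2 (4.84%, 2.67% to 7.99%). Over all peaks the shares were 11.7%, 15.7% and 13.5%.

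Most unannotated peaks lay inside the RefSeq span of the gene they were assigned to, at 86.0%, 84.0% and 81.2%, near the 84.3%, 84.5% and 84.6% of all peaks. The rest lay differently. Wholly outside the span were 13.1%, 14.2% and 15.7% of unannotated peaks, against 2.89%, 1.43% and 2.26% of annotated peaks. Across an end of the span lay 4 of 421, 3 of 169 and 9 of 287 unannotated peaks, against 12.5%, 13.9% and 12.8% of all peaks. Of the outlying peaks, 27, 12 and 23 lay wholly before the gene's start and 28, 12 and 22 wholly after its end. Over 2000 bases outside were 44, 17 and 34 unannotated peaks, or 10.5%, 10.1% and 11.8%, against 1.22%, 0.598% and 0.969% of annotated peaks. Of the 55, 24 and 45 peaks wholly outside, 15, 7 and 13 overlapped another RefSeq gene on the same strand. Only genes whose strand RefSeq's window table gives were counted. These genes, other than those the authors named, were long non-coding RNA genes in 10, 4 and 7 cases and protein-coding genes in 5, 3 and 6 cases.

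Peaks of 10 genes lay over 2000 bases outside their gene and recurred in all 3 lists. The farthest were at FANCC, from 97129 to 97529 bases, C12orf60, at 79602 bases in each list, and PTPRS, a receptor tyrosine phosphatase, from 46449 to 46649 bases. B3GNT5, a glycosyltransferase, followed at 22780 to 23380 bases and PRPF40B, a splicing factor, at 18287 to 21520 bases. For 2 of the 10, FANCC and SPG7, the peaks of all 3 lists overlapped a RefSeq long non-coding RNA gene. The FANCC peak at chr9:95414838-95426796 lay before the RefSeq start of FANCC, a subunit of the Fanconi anaemia core complex, and overlapped LOC105376156. The SPG7 peak at chr16:89490917-89498215 lay 10173 bases before the RefSeq start of SPG7 under control siRNA. This peak overlapped LOC101930112, whose start is printed above, and began shortly before that start. In both cases the gene the authors named was not the RefSeq gene at that place.

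Unannotated peaks recurred across lists less often than all peaks in all 6 pairs of lists, and a peak counted as found where it shared at least 1 base on the same strand with any peak of the other list. Under control siRNA, 110 of 424 (25.9%, 21.8% to 30.4%) were found in the DF2 siRNA 1 list, against 67.1% of all control peaks. In the DF2 siRNA 2 list 200 of 424 (47.2%, 42.3% to 52.0%) were found, against 73.4% of all control peaks. From DF2 siRNA 2, 203 of 289 (70.2%, 64.6% to 75.5%) were found under control siRNA, against 86.1% of all peaks of that list. In the DF2 siRNA 1 list 108 of 289 (37.4%, 31.8% to 43.2%) were found, against 80.5%. With each list limited to its 13147 highest-scoring peaks, the share of control siRNA peaks found under DF2 siRNA 1 was 44.5% in place of 25.9%.

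For the DF2 siRNA 1 list the gap was smaller. Of its unannotated peaks 137 of 172 (79.7%, 72.9% to 85.4%) were found under control siRNA, near the 81.5% of all its peaks, and 128 of 172 (74.4%, 67.2% to 80.8%) were found under DF2 siRNA 2, below the 83.6% of all its peaks. By the rule of at least 1 shared base, the list with the fewest unannotated peaks thus had those most often found elsewhere. When 50% or more of both peaks had to be shared, the order was mixed. Under control siRNA 57.0% of DF2 siRNA 1 and 61.2% of DF2 siRNA 2 peaks were then found. Under DF2 siRNA 2 these were 57.0% of DF2 siRNA 1 and 42.5% of control siRNA peaks. At least 1 other list held 50.9%, 86.6% and 74.0% of the unannotated peaks of control siRNA, DF2 siRNA 1 and DF2 siRNA 2, against 77.7%, 89.2% and 93.5% of all peaks. Both other lists held 22.2%, 67.4% and 33.6%, against 62.8%, 75.9% and 73.2%.

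Within a step of 20% of a list by score, unannotated and annotated peaks recurred at more similar rates. In the weakest 20% of the control siRNA list, 13.3% of unannotated peaks (9.48% to 17.9%) and 14.3% of annotated peaks (13.0% to 15.7%) were found under DF2 siRNA 1. For the DF2 siRNA 2 list the same shares were 31.4% (25.9% to 37.3%) and 30.4% (28.7% to 32.2%). The remaining gaps ran in both directions. From DF2 siRNA 1 to control siRNA, unannotated peaks were found more often in every step, but the highest steps held only 7, 4 and 1 of them. In the weakest 20% the shares found were 77.5% (69.0% to 84.6%) against 71.1% (69.3% to 72.9%), with overlapping intervals. In the next 20% they were 82.5% (67.2% to 92.7%) against 75.2% (73.5% to 76.8%), also with overlapping intervals. In some steps of other pairs of lists unannotated peaks were found less often. In the next 20% of the control list 39.1% of unannotated peaks (30.2% to 48.7%) and 52.3% of annotated peaks (50.5% to 54.1%) were found under DF2 siRNA 1. From DF2 siRNA 2 to DF2 siRNA 1 the weakest 20% gave 25.5% (19.7% to 32.0%) against 35.4% (33.5% to 37.3%), and the next 20% gave 57.1% (43.2% to 70.3%) against 76.2% (74.5% to 77.8%). All 10 unannotated peaks of control siRNA in the upper 40% were found in both DF2 siRNA lists, too few to compare.

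**Figure D4:**
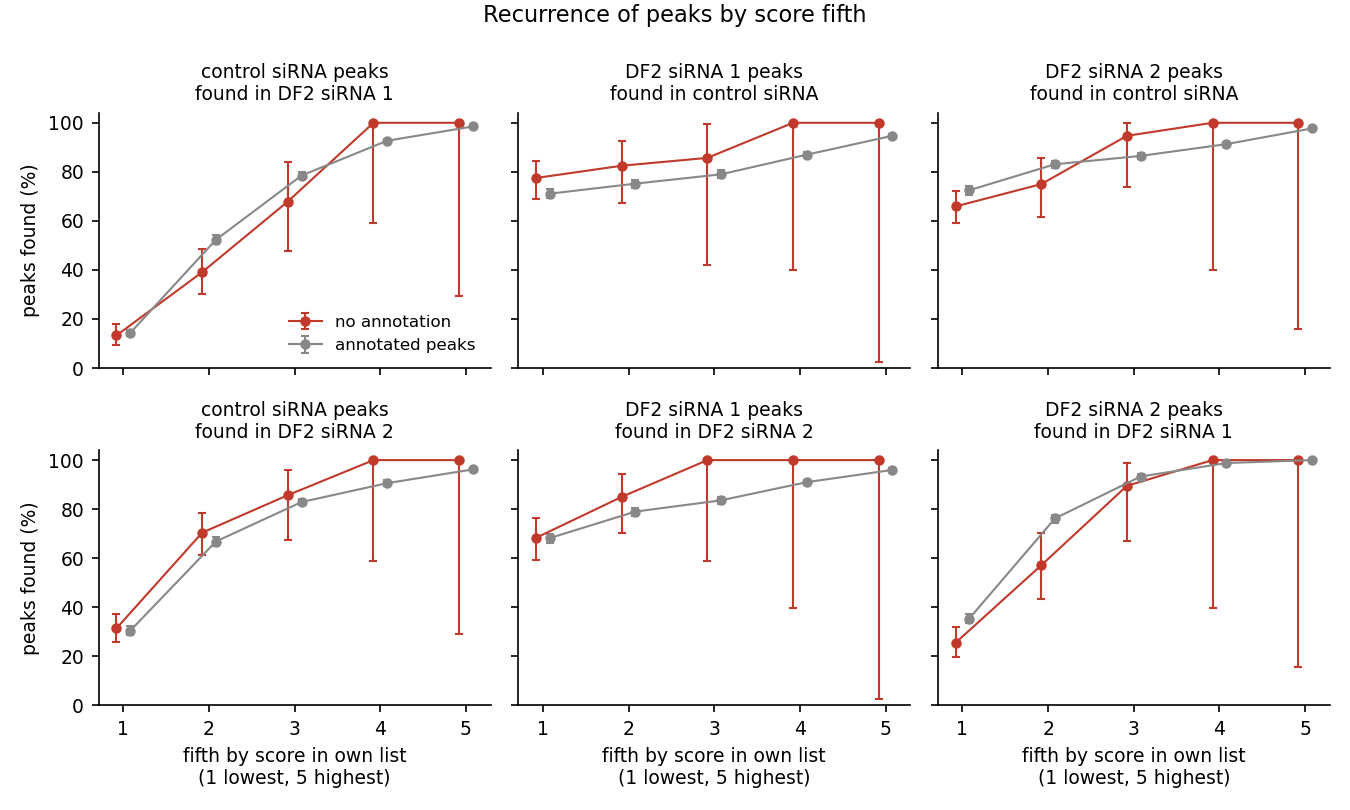
Share of peaks found in another list (y axis, %) by step of 20% of the own list by score (x axis, 1 for the lowest step), for unannotated and annotated peaks in the 6 pairs of lists; bars show exact 95% intervals for counting error. Both classes rise together from the weakest step (13.3% and 14.3% from control siRNA to DF2 siRNA 1) to the strongest, where only 3, 1 and 2 unannotated peaks stand in the 3 lists.

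Recurrent unannotated peaks were also wider and stronger than those of a single list. A wider peak more easily shares 1 base with another, so the link to width follows in part from how overlap was counted. Annotated peaks also recurred more often in stronger steps, and their widths were not split in this way. Under control siRNA the 208 peaks found in neither DF2 siRNA list had a median percentile of 8.03, and 59.1% of them (52.1% to 65.9%) covered a single bin of 200 bases. The 122 found in 1 other list had a median percentile of 16.8 and a single-bin share of 31.1% (23.1% to 40.2%). The 94 found in both had a median percentile of 28.8 and a single-bin share of 12.8% (6.77% to 21.2%). Both other lists had the same order, with median percentiles of 3.04, 5.75 and 13.9 under DF2 siRNA 1 and 5.44, 8.14 and 20.3 under DF2 siRNA 2.

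Where an unannotated peak was found in another list, the peak there, or at least 1 of several, mostly lacked an annotation too. This held for 94 of 110 and 175 of 200 control siRNA peaks found under DF2 siRNA 1 and DF2 siRNA 2, or 85.5% and 87.5%. For DF2 siRNA 1 it held for 70.8% of the peaks found under control siRNA and 76.6% of those under DF2 siRNA 2, and for DF2 siRNA 2 it held for 86.7% and 88.9% of those found under control siRNA and DF2 siRNA 1. Peaks with identical bounds and blocks numbered 43 between control siRNA and DF2 siRNA 1, 97 between control siRNA and DF2 siRNA 2 and 45 between both DF2 siRNAs. Of these, 0 were annotated in the other list. Peaks at the same place thus lacked a label alike, so the shares above follow in part from the overlap itself.

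Joined across lists, the unannotated peaks formed 593 regions. Of these, 208 held a control siRNA peak and nothing in the other lists, 75 a DF2 siRNA 2 peak alone and 23 a DF2 siRNA 1 peak alone. Such peaks were 49.1%, 26.0% and 13.4% of the unannotated peaks of control siRNA, DF2 siRNA 2 and DF2 siRNA 1. Over all peaks the shares were 22.3%, 6.51% and 10.8%, so control siRNA, the longest list, had the highest share there too. The largest shared class was 92 regions unannotated under control siRNA and DF2 siRNA 2 with no DF2 siRNA 1 peak. A further 77 regions were unannotated in all 3 lists, 12 in control siRNA and DF2 siRNA 1 and 9 in both DF2 siRNA lists without control siRNA. In 15 regions the DF2 siRNA 1 peak alone lacked an annotation, while both other lists held a peak with one.

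The strongest recurrent regions were at DNAJC21, TRMU, KAZALD1, TRABD2A and SPG7, each in the upper 50% of all 3 lists. At DNAJC21, a co-chaperone that acts in ribosome assembly, the score was 900 under control siRNA, 108 under DF2 siRNA 1 and 526 under DF2 siRNA 2. This corresponds to percentiles 84.0, 78.8 and 85.3, with fold enrichments of 50.6, 46.8 and 59.2. The peak, at chr5:34950485-34951484 on the plus strand, lay inside the gene at 72.9% of its length. At KAZALD1, a secreted protein with an immunoglobulin domain, the percentiles were 71.7, 83.6 and 79.1, and it was the strongest unannotated peak of the DF2 siRNA 1 list. It lay at chr10:101067519-101068131 and under control siRNA ended at the last base of the RefSeq gene.

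TRMU, an enzyme that thiolates mitochondrial tRNAs, had the same 800-base peak in all 3 lists, at chr22:46330875-46331674. It stood at percentiles 82.6, 74.5 and 85.0, and lay 4040 bases before the RefSeq start of the gene. TRABD2A, a membrane protease that inactivates Wnt ligands, held the strongest unannotated peak of the control siRNA list, with a score of 1524, rank 1297 of all peaks and percentile 91.5. Under DF2 siRNA 1 and DF2 siRNA 2 it stood at percentiles 68.0 and 64.8, and its fold enrichment was 52.0 under control siRNA and 20.1 under DF2 siRNA 2. It also covered 1400 bases in both DF2 siRNA lists and 1800 bases under control siRNA.

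SPG7, the gene of the mitochondrial protease paraplegin, held 3 unannotated regions. The strongest joined 2 stretches at chr16:89514561-89523108, with identical bounds in all lists, percentiles of 61.8, 72.3 and 54.7 and fold enrichments of 63.3, 66.3 and 58.6. The weakest lay upstream and overlapped LOC101930112, at percentiles 16.2, 5.75 and 23.8. The third, at chr16:89498416-89507631, was unannotated under control siRNA and DF2 siRNA 1 and was labelled 5′ UTR under DF2 siRNA 2, where the peak reached farther downstream.

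**Figure D5:**
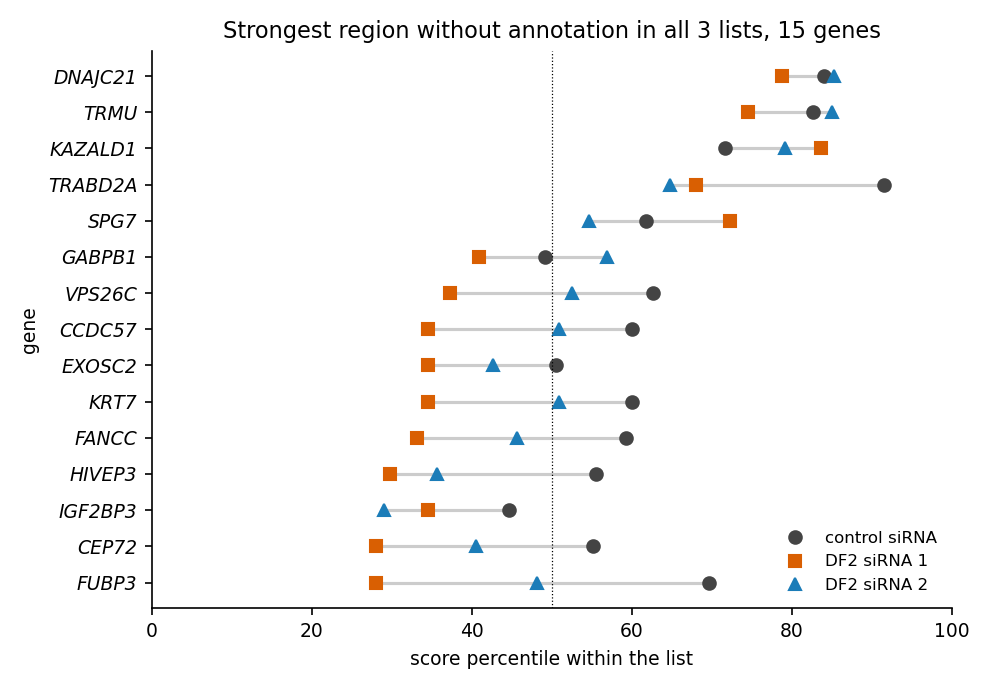
Score percentile within each list (x axis) of the strongest region unannotated in all 3 lists for each of 15 genes (y axis), the genes with the highest minimum percentile; markers are the 3 lists, the dotted line is the middle of a list. Regions of 5 genes lie above percentile 50 in all 3 lists, from DNAJC21 at 78.8 or more to SPG7 at 54.7 or more.

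Of the next 10 genes, 9 stood above the middle of the ranking in at least 1 list but not in all 3, and IGF2BP3, described below, stood under it in each. GABPB1, a subunit of the GA-binding transcription factor, stood at percentiles 49.2, 40.9 and 56.9 with a peak near the gene's start, at 1.37% of its length. VPS26C, a subunit of the retriever sorting complex listed as DSCR3, stood at 62.6, 37.3 and 52.5. CCDC57, a coiled-coil protein, stood at 60.0, 34.5 and 50.9, and its 800-base peak had identical bounds in all lists. EXOSC2, a subunit of the RNA exosome, stood at 50.5, 34.5 and 42.7, also with identical bounds.

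KRT7, a keratin of simple epithelia, had 2 unannotated regions in all 3 lists. The one at chr12:52251894-52252186 covered 293 bases and stood at percentiles 60.0, 34.5 and 50.9. The one at chr12:52243143-52244372 joined 2 stretches and stood at 53.6, 33.1 and 67.1, which made it the fifth strongest unannotated peak of the DF2 siRNA 2 list. FANCC stood at 59.3, 33.1 and 45.7, HIVEP3, a zinc finger transcription factor, at 55.5, 29.8 and 35.7, and CEP72, a protein of the centriolar satellites, at 55.2, 28.0 and 40.5. FUBP3, a single-strand nucleic acid-binding protein, stood at 69.7, 28.0 and 48.2, the widest range among these 15 genes.

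Genes of the m6A pathway were tallied from a list. The 9 writer genes and both eraser genes, FTO and ALKBH5, all had a peak in each list and 0 had an unannotated one. A count of 0 among so few genes is near the 4.08%, 1.94% and 3.11% of all genes and says nothing about them. Of 8 reader genes listed, 7 had a peak in each list, and 3, 1 and 2 of them had an unannotated one. At IGF2BP3, a reader that stabilises its targets, the fold enrichment was 64.6 under control siRNA, 18.7 under DF2 siRNA 1 and 27.4 under DF2 siRNA 2, at percentiles 44.6, 34.5 and 29.0. It lay at chr7:23414456-23415455 on the minus strand, at 34.6% of the gene's length. At IGF2BP1 a single-bin peak was listed under control siRNA and DF2 siRNA 2, at percentiles 16.8 and 3.98, and none overlapped it under DF2 siRNA 1.

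YTHDC1, the nuclear m6A reader, had its unannotated peak under control siRNA only, at chr4:68322546-68322745 on the minus strand. It covered a single bin, with a score of 81, a percentile of 38.8 and a fold enrichment of 13.4. It was one of 208 control siRNA peaks that met no peak of either DF2 siRNA list, or 49.1% of the unannotated peaks there. Over all control siRNA peaks that share was 22.3%. The strongest of those 208 was at TOR1AIP2, a partner of torsin ATPases, at percentile 51.2, followed by OCIAD1, an endosomal and mitochondrial protein, at 50.5, NBPF1 at 42.4 and KAT8, a histone acetyltransferase, at 40.1. NBPF1 belongs to a family of near-identical copies, so its reads may be split. KAT8 had the lowest fold enrichment of these 5, at 9.10, and OCIAD1 the highest, at 42.3.

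A count that asks for 2 lists at once gave 9 regions unannotated in both DF2 siRNA lists with no control siRNA peak. It cannot be set against the 208, whose like counts are the 23 and 75 regions of DF2 siRNA 1 or DF2 siRNA 2 alone. No like count of regions over all peaks was made. The strongest of the 9 was at RXRA, a nuclear receptor for retinoids, at chr9:134439372-134439771 and percentiles 43.1 and 48.8. This was not a gain of an unannotated peak for the gene, since control siRNA had another one at chr9:134440172-134440585, which ended at the last base of RXRA and stood at percentile 46.5. SOX13, a transcription factor, had a peak at chr1:204073115-204073514, beginning at the first base of the RefSeq gene, at percentiles 37.3 and 36.1. SRRM2, a scaffold protein of nuclear speckles, stood at 31.5 and 27.9, RHBDD3, a rhomboid family protein, at 26.2 and 37.4, and HSF1, the heat shock transcription factor, at 11.6 and 31.0.

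In other regions an unannotated peak met an annotated one of another list. In those named next the annotated peak covered more bases. At MBOAT7, an acyltransferase for lysophospholipids, unannotated peaks of 400 bases under control siRNA and 600 bases under DF2 siRNA 2 stood at percentiles 75.9 and 68.3. Under DF2 siRNA 1 a peak of 1000 bases with the same first base was labelled 3′ UTR and stood at 74.9. At TTL, tubulin tyrosine ligase, peaks of 400 and 600 bases in the DF2 siRNA lists lay within a control siRNA peak of 800 bases labelled coding. HOXA6, a homeobox gene, and PRKX, a protein kinase, each had a single-bin unannotated peak in both DF2 siRNA lists within a control siRNA peak of 600 bases, labelled coding and 5′ UTR for HOXA6 and 3′ UTR for PRKX.

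The same held for single lists. JPH3, a junctophilin, had an unannotated peak of 1000 bases under DF2 siRNA 1 and coding peaks of 1400 bases in both other lists. PHF20, a methyl-lysine reader, had an unannotated peak of 400 bases under DF2 siRNA 1 and 5′ UTR peaks of 800 and 600 bases under control siRNA and DF2 siRNA 2. TYRO3, a receptor tyrosine kinase, was unannotated with 400 bases under control siRNA and DF2 siRNA 1 and labelled coding and stop codon with 600 bases under DF2 siRNA 2. At GLCE, an epimerase of heparan sulfate synthesis, an unannotated peak of 800 bases under DF2 siRNA 1 lay where both other lists had 1 peak of 1800 bases with coding and 5′ UTR parts. POFUT4, an O-fucosyltransferase listed as FUT11, had unannotated peaks of 600 bases in both DF2 siRNA lists, within a control siRNA peak of 1800 bases that also held the stop codon. SHARPIN, a subunit of the linear ubiquitin ligase, and ZFP41, a zinc finger protein, each had an unannotated peak of 400 bases in 2 lists, at percentiles 47.7 and 44.8 for SHARPIN and 40.8 under control siRNA for ZFP41.

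Among gene families tallied by symbol, zinc finger (ZNF) genes had a peak in 360, 311 and 337 cases and an unannotated one in 7, 4 and 5. These shares of 1.94%, 1.29% and 1.48% stood below those of all genes (4.08%, 1.94% and 3.11%), and the intervals, up to 3.97%, 3.26% and 3.43%, reached the all-gene share under both DF2 siRNAs. The fold enrichment was 6.61 for ZNF131 and 8.30 for ZNF160 under control siRNA, and 4.67 for ZNF200 under DF2 siRNA 2. Ribosomal protein genes had a peak in 22, 16 and 19 cases, and the single unannotated one in each list was at RPL3, a protein of the large subunit. A single gene in such small counts is near the share of all genes. The RPL3 peak, at chr22:39319990-39320389 on the minus strand, had identical bounds in all lists, stood at percentiles 28.3, 13.9 and 20.3, and lay 367 bases before the gene's RefSeq start. Its fold enrichment was 11.3, 7.36 and 11.8.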

How the data were processed

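Per the submitters' processing notes, reads were aligned with HISAT2 to hg38. Neither the peak caller nor the gene annotation is named there or in the labels. Per the file headers, the authors deposited 1 merged peak list per condition with, for each peak, a score, a fold enrichment (a ratio of precipitate to input) and a −log10 FDR; all peaks had an FDR under 0.05.

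Positions were made 1-based, and blocks of minus-strand peaks were matched to their sizes in reverse order, after which all block ends met the peak ends. Overlap code was tested on simulated data. Gene symbols (531) were matched to RefSeq GRCh38.p14, 495 directly, 33 by a synonym and 3 kept; positions along genes use RefSeq spans. Of the sequence tables, no miRNA overlapped an unannotated peak. Python 3.11.15, pandas 2.3.3 and scipy 1.17.1 were used. No test was run, since each condition has 1 list.

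The peaks, gene lists and naming rule were chosen with earlier results of these data known. Named were up to 15 genes unannotated in all lists by their lowest percentile, the 5 strongest and 3 widest peaks of each list, up to 5 each for peaks in control alone, in both DF2 siRNA lists alone or meeting an annotated peak, and up to 4 members of each gene list. The other gene lists (ribosomal protein pseudogenes, mitochondrial genes, small RNA and their host genes, long non-coding RNAs) had 0 unannotated peaks.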

Additional observations from a re-analysis of the deposited data

How the results depend on the processing

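No paired analysis was possible because each condition has 1 merged list, so neither replicates nor replicate numbers could be used, and no list could be left out. Of 81 alternatives to 21 results, 50 stayed within the main value's interval (counts within 1.5 times) and 31 moved; the cause was not tested except that fewer weak peaks remain under the stricter choices. Values follow in the order control siRNA, DF2 siRNA 1, DF2 siRNA 2 unless said. The share of unannotated peaks moved to 2.16%, 0.975% and 1.64% at an FDR under 0.01, to 0.262%, 0.0914% and 0.195% in the upper 50% by score, and to 0.904%, 0.243% and 0.586% in the upper 50% by fold enrichment. With equal numbers of top peaks it was 1.59% under control siRNA.

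Shares found in another list moved as follows. When 50% or more of both peaks had to be shared, control siRNA in DF2 siRNA 1 gave 20.5%, DF2 siRNA 1 in control siRNA and in DF2 siRNA 2 gave 57.0% and 57.0%, DF2 siRNA 2 in control siRNA gave 61.2% and in DF2 siRNA 1 gave 31.1%. With equal numbers of top peaks, control siRNA in DF2 siRNA 1 and DF2 siRNA 2 gave 44.5% and 69.4%, and DF2 siRNA 1 and DF2 siRNA 2 in control siRNA gave 71.5% and 58.2%. In the upper 50% by score, with 6 and 13 peaks, DF2 siRNA 1 in both other lists gave 100% and 100%, and DF2 siRNA 2 in control siRNA and DF2 siRNA 1 gave 92.3% and 53.8%. Gaps of up to 100 bases, ignoring strand, whole spans and an FDR under 0.01 moved none of the 6 shares out of their intervals.

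The median percentile moved to 28.6, 27.4 and 25.0 when ranked by −log10 FDR, to 25.0, 15.3 and 17.7 among peaks of the same width, and to 15.6 under control siRNA by fold enrichment. Spans extended by 2000 bases held 87.1% of the DF2 siRNA 2 peaks. Median width and gene counts did not move under the alternatives run. No genome or exon map was used, so the sequence under most unannotated peaks was not analysed here, and read depth is unknown.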
